A study of Mus musculus with 2 samples.

Results

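The cells described here are T cells of the mouse thymus without Rag transcripts, 2224 of the 19019 cells that carried a single genotype hashtag: 586 from Mgl2DTR mice and 1638 from wild-type (WT) mice. They were chosen by measured UMIs, that is by counts of transcript molecules. A member held at least 3 UMIs of Cd3d, Cd3e and Cd3g together, no UMI of Rag1 or Rag2 and at most 1 Siglech UMI, with at most 1% of its UMIs from the class II genes Cd74, H2-Aa and H2-Ab1 and under 3% from S100a8 and S100a9. These 11 genes are therefore given as levels and never as results. At the edges, 37 Mgl2DTR and 71 WT members held exactly 3 Cd3 UMIs, and 36 Mgl2DTR and 77 WT cells with 2 fell just outside. Between 0.5% and 1% of class II UMIs lay 23 Mgl2DTR and 83 WT members, and 29 Mgl2DTR and 115 WT cells between 1% and 2% were outside.

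The groups were Mgl2DTR_eGFP mice, whose label gives a diphtheria toxin receptor (DTR) and the marker eGFP under the name of Mgl2, given 500 ng of toxin with a 48 h exposure, and WT mice, labelled B6WT. Both were 7 weeks old, and the labels do not say whether WT mice received toxin. Mgl2, which codes for a C-type lectin, marks a subset of dendritic cells and macrophages, so toxin is aimed at those cells and not at T cells. Digested thymus was depleted of cells carrying CD90.2, the surface protein of T-lineage cells, and live cells stained for the myeloid proteins CD11c and CD11b were sorted. The T cells described here are thus cells that passed a depletion aimed at their lineage. Both genotypes were run in 1 pool of droplets and no animals were named, so each genotype is 1 library. No test across animals was possible, no p-value is given, and every interval is a 95% interval for counting error only.

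Genotype was read from an oligonucleotide hashtag carried by an antibody on the cells. The 3 hashtags of the pool are shown because every comparison rests on telling them apart. Capitals mark the 5 of 15 positions at which all 3 differ.
Mgl2DTR: CtttgtCtttGTgAg
B6WT: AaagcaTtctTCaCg
uncategorized: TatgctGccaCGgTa
The Mgl2DTR and WT oligonucleotides were alike at 3 positions. Mgl2DTR members held a median of 1036 UMIs of their own hashtag, 20 of the WT one and 19 of the third. WT members held 974 of their own, 17 of the Mgl2DTR one and 19 of the third. The WT hashtag was about as rare in Mgl2DTR members as the third hashtag, and the Mgl2DTR hashtag as rare in WT members.

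Developing thymocytes rearrange their T cell receptor genes with the Rag recombinases and switch these off once a receptor has been selected. Signalled cells then express CD69, Itm2a and the chemokine receptor Ccr9, commit to the CD4 or the CD8 lineage, and mature into cells with Klf2, S1pr1 and Il7r that can leave the thymus. Cells whose receptor binds self-antigen strongly are deleted or become regulatory T cells with Foxp3. Innate-like T cells with Zbtb16 or natural killer receptors and gamma delta T cells also develop in the thymus, and some of them make IL-4 and interferon gamma.

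Members were shallow beside the other sorted cells, with a median of 3569 UMIs in Mgl2DTR and 3514 in WT, against 6930 and 7820 over all single-hashtag cells. Their summed UMIs were 2785476 in Mgl2DTR and 7554691 in WT. Median genes per cell were 1418 in Mgl2DTR and 1422 in WT, and mitochondrial shares 2.65% and 2.45%. No cell barcode was shared by the 2 gene tables. Over all single-hashtag cells, Mgl2 was at 17.9 CPM (a gene's UMIs per 1000000 UMIs of the cells summed) in Mgl2DTR and 109 CPM in WT. Within members it was at 2.87 CPM (1.24 to 5.66) in Mgl2DTR and 1.85 CPM (1.01 to 3.11) in WT, from 8 and 14 UMIs.

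T cell receptor transcripts were found in nearly all members, and maturation markers in part of them. Trbc2, a constant part of the T cell receptor beta chain, was found in 95.2% of Mgl2DTR and 97.3% of WT members, and Cd28, which encodes a costimulatory receptor, in 64.5% and 67.5%. Lef1, a transcription factor of T cells, was found in 59.6% of Mgl2DTR and 70.5% of WT members. Ms4a4b, a membrane protein of mature T cells, was found in 81.2% and 62.7%. S1pr1, the receptor that guides mature cells out of the thymus, was found in 42.8% and 34.1%. Dntt, the terminal transferase of rearranging cells, was at 41.3 CPM in Mgl2DTR and 31.0 CPM in WT members. In cells passing the same rule with a Rag UMI, 32 in Mgl2DTR and 461 in WT, Dntt was at 686.5 and 549.8 CPM. S1pr1 was at 79.2 CPM in those Mgl2DTR cells and 12.01 CPM in those WT cells, against 245 and 168 CPM in members. Itm2a was at 19.8 and 92.6 CPM in Rag-expressing cells, and at 198.5 CPM in Mgl2DTR and 387 CPM in WT members.

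Some members went against the description as T cells. Cst3, a dendritic cell gene, was found in 95.7% of Mgl2DTR and 94.1% of WT members, at 1991 and 2471 CPM, a level whose source was not tested. Of 9 clusters of members, numbered by size from 0, cluster 6 was led by the activated dendritic cell genes Fscn1 and Ccl22 and held 27 Mgl2DTR and 132 WT cells. Cluster 8 was led by the antibody genes Igha and Igkc, with Lyz2 of myeloid cells, and held 27 Mgl2DTR and 38 WT cells. Cells of these 2 clusters had medians of 8527 and 7312 UMIs and can be droplets of a T cell with another cell, which was not tested. Cluster 3 expressed natural killer receptors and is described below. Values without these clusters are given beside the results they change.

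Members were a smaller share of the sort in Mgl2DTR than in WT. Their share was 7.88% of Mgl2DTR cells (7.28 to 8.52) and 14.1% of WT cells (13.5 to 14.8), a ratio of 0.558 (0.507 to 0.613). Cells under the same rule with a Rag UMI were 0.431% of Mgl2DTR and 3.98% of WT cells, a ratio of 0.108 (0.0731 to 0.155), and class II-rich cells with at least 3 Cd3 UMIs 1.67% and 7.34%, a ratio of 0.227 (0.187 to 0.275). The intervals of the 3 ratios did not overlap. A share of a sort also moves with every other cell in it: neutrophils, gated on S100a8 and S100a9 without Cd3 UMIs, were 10.8% of Mgl2DTR and 2.78% of WT cells. With these left out of the total, members were 8.84% of Mgl2DTR and 14.5% of WT cells, a ratio of 0.608 (0.552 to 0.668). Without the members of clusters 3, 6 and 8 the ratio was 0.425 (0.378 to 0.477).

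Among themselves, the members spanned stages and lineages, which the leading genes of the 9 clusters describe. Cluster 0 (152 Mgl2DTR and 438 WT cells) was mature single-positive thymocyte-like, led by S1pr1 with Cd4 among its first 10 genes. Cluster 1 (76 and 261 cells) was CD8 T cell-like, with Cd8b1, Cd8a and the CD8-lineage factor Runx3. Cluster 2 (23 and 236 cells) was CD4 T cell-like, led by Itm2a, with the CD4-lineage factor Zbtb7b and Cd40lg, the ligand of CD40. Cluster 4 (62 and 152 cells) was regulatory T cell-like, with Tnfrsf9, Xcl1, Foxp3, Ikzf2, Il2ra and Ctla4 among its first 10 genes. The name describes its leading genes, since most of its cells held no Foxp3 UMI. Foxp3 was found in 20.1% of its cells, Il2ra in 23.8% and Cd8a in 17.3%. Ikzf2 was at 1335 CPM there and at 1423 CPM in cluster 5. Cluster 5 (13 and 188 cells) stayed unnamed and was led by Myb, Cd24a, a surface protein lost during maturation, Ccr9 and Sox4. Cluster 7 (47 and 93 cells) stayed unnamed and was led by histone genes, Top2a and Mki67 of dividing cells. S1pr1 was at 573 CPM in cluster 0 against 105 CPM in the other members.

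**Figure D1:**
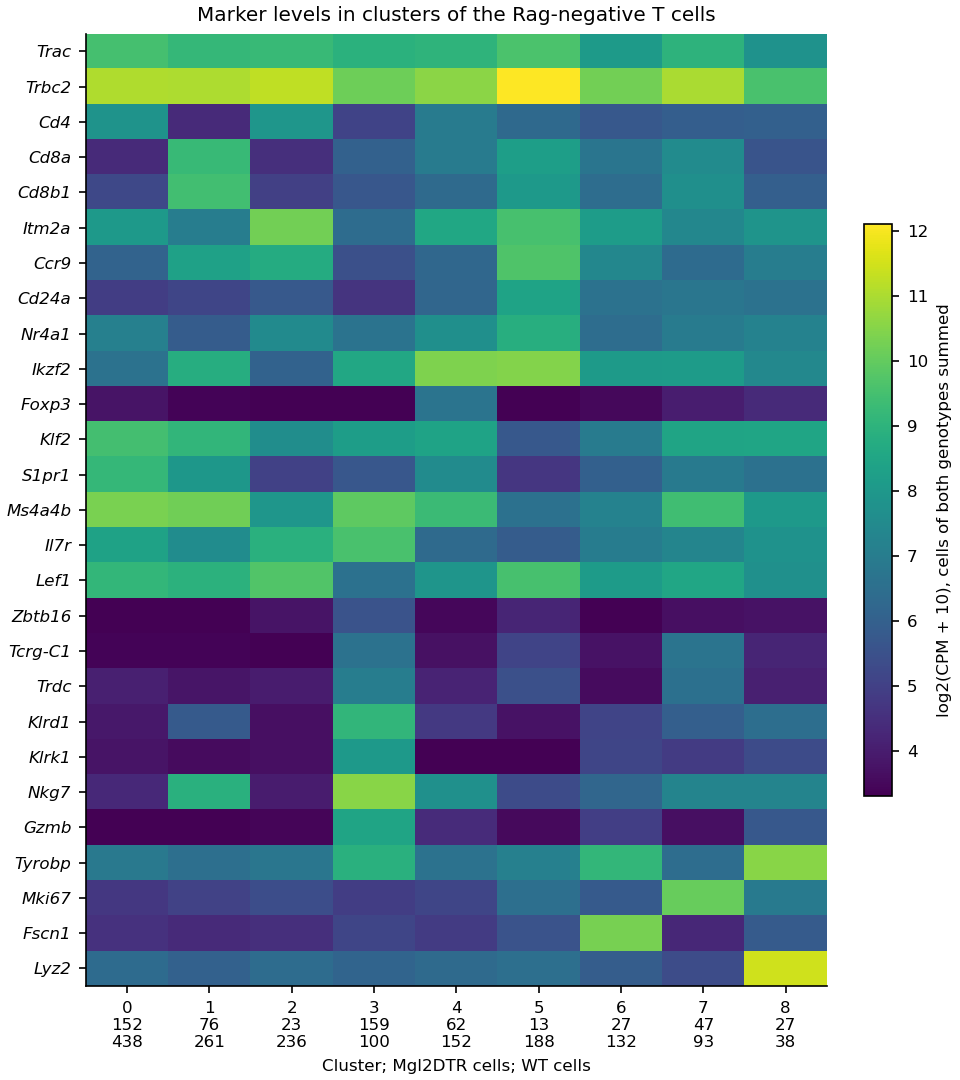
Level of 27 marker genes (rows) in the 9 clusters of Rag-negative T cells (columns), as log2(CPM + 10) with the cells of both genotypes summed. Numbers under each cluster give its Mgl2DTR cells and then its WT cells. S1pr1 and Klf2 are high in cluster 0, Cd8a in cluster 1, Itm2a in cluster 2, Klrd1 and Nkg7 in cluster 3, Foxp3 in cluster 4, Cd24a in cluster 5, Fscn1 in cluster 6, Mki67 in cluster 7 and Lyz2 in cluster 8.

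Cluster 3 (159 Mgl2DTR and 100 WT cells) stayed unnamed because it held 6 of 10 innate-like T cell markers and 3 of 5 CD8 T cell markers, beside 4 of 10 of natural killer cells and innate lymphoid cells. It was led by Klra9, the granzyme genes Gzmc, Gzma and Gzmb, Klrb1c (NK1.1), Klra1, Klrd1 (CD94), Nkg7 and Klrk1 (NKG2D). Klra9, Klrb1c, Klrd1 and Klrk1 lie within the same stretch of chromosome 6, from 128778485 to 130193112 in GRCm38 (GENCODE annotation). Genes of the Klra family are near-identical copies, and reads may have been split among them. The cells also held T cell receptor transcripts: Trac, the alpha chain constant gene, in 74.2% of Mgl2DTR and 67% of WT cells of the cluster, and Trbc2 in 90.6% and 87%. Tcrg-C1, a gamma chain constant gene, was found in 18.9% and 19%. Cd4 was found in 6.92% and 9% and Cd8a in 6.92% and 5%, so most of these cells showed neither coreceptor. Ncr1, which encodes NKp46 of natural killer cells and innate lymphoid cells, was found in 4.40% of Mgl2DTR and 9% of WT cells of the cluster, and Zbtb16 in 11.9% and 12%.

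To compare cluster sizes, the members were clustered again without 717 of the genes called between genotypes (the call is described below), a step added after the values were seen. Each of the 9 new clusters took most of its cells from a different cluster of the first set. The cluster matching cluster 3 held 27.1% of Mgl2DTR members (23.6 to 30.9) and 6.35% of WT members (5.22 to 7.64), a ratio of 4.27 (3.32 to 5.53). Of its 263 cells 245 came from cluster 3. Its first leading genes were Igha, Igkc, Jchain and Dcn, which had led cluster 8, followed by Klra9 and Gzmc. The cluster matching cluster 8 took 61.5% of the cells of cluster 8. The Itm2a cluster matching cluster 2 held 3.92% of Mgl2DTR and 13% of WT members, a ratio of 0.302 (0.187 to 0.465). The cluster matching cluster 5, now led by Dntt, Myb and Arpp21, held 3.92% and 11.8%, a ratio of 0.331 (0.205 to 0.512). The mature cluster 0 held 24.9% of Mgl2DTR and 25.8% of WT members, a ratio of 0.965 (0.794 to 1.17), and the regulatory T cell-like cluster 4 held 12.6% and 11.2%, a ratio of 1.13 (0.851 to 1.49). The cluster matching cluster 6, with the dendritic cell genes, held 4.78% and 8.18% and the one matching cluster 8 held 3.41% and 1.47%.

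**Figure D2:**
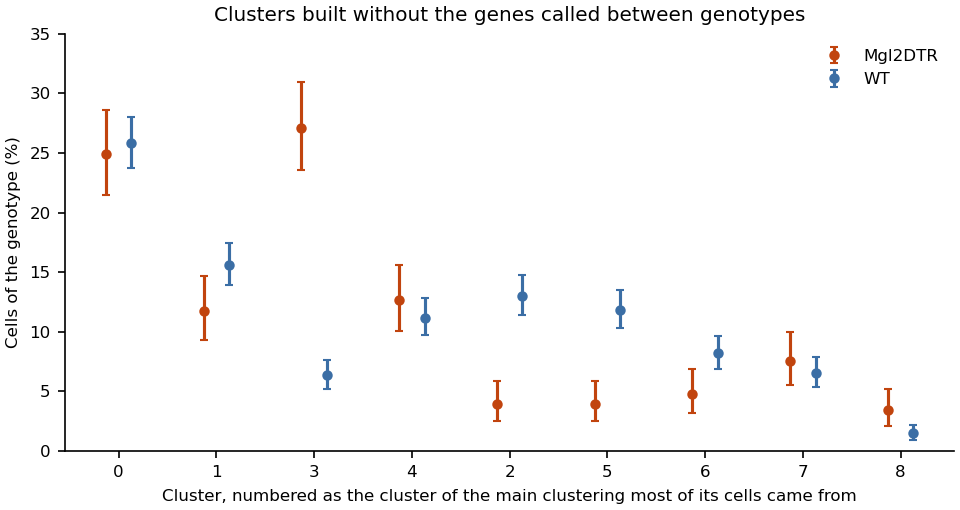
Share of Mgl2DTR (left point) and WT (right point) members in each cluster built without the genes that differed between genotypes, in percent with exact 95% intervals for counting error. The x axis numbers each cluster by the first-set cluster that gave most of its cells. The intervals are apart for clusters 3, 2, 5 and 6, and overlap for clusters 0 and 4.

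Shares of members with a UMI of 1 gene, which need no clusters, were compared after each cell was thinned to 1500 UMIs, which kept 573 Mgl2DTR and 1579 WT members. The coreceptor gates and those of Foxp3, Zbtb16, Trdc, S1pr1, Klf2, Itgax and Itgam were planned. All other gates, among them Ccr9, Itm2a, Nr4a1, Ms4a4b, Il7r, Lef1, Cd28, Klrd1 and Klrk1, were added outside the plan. Ccr9, Itm2a and Nr4a1, genes of recently signalled cells, were found in fewer Mgl2DTR members. Ccr9 was found in 11.9% of Mgl2DTR (9.33 to 14.8) and 24.3% of WT members (22.2 to 26.5), a ratio of 0.488 (0.371 to 0.633). Itm2a was found in 20.2% and 32.5%, a ratio of 0.622 (0.504 to 0.762). Nr4a1, an early gene of receptor signalling, was found in 13.1% and 17.2%, a ratio of 0.760 (0.580 to 0.985). Ikzf2, also listed below among genes of receptor signalling, was found in 28.1% and 28.3%, and its interval held 1 (0.9925, 0.824 to 1.19). Cd69, also a gene of signalled cells, was not gated. Unthinned, it was found in a larger share of Mgl2DTR than of WT cells in every first-set cluster but cluster 1. Its shares were 40.8% and 41% in cluster 1, 28.3% and 27.2% in cluster 0 and 53.2% and 39.5% in cluster 4. Genes of mature cells were found in more Mgl2DTR members. S1pr1 was found in 30.02% of Mgl2DTR and 22.1% of WT members (ratio 1.36, 1.12 to 1.64). Klf2, the factor that drives S1pr1, was found in 45.0% and 36.2% (1.25, 1.07 to 1.45). Ms4a4b was found in 66.8% and 49.8% (1.34, 1.18 to 1.52) and Il7r, the IL-7 receptor chain, in 38.05% and 22.04% (1.73, 1.45 to 2.05). Lef1 was found in 40.1% and 46.9% (0.855, 0.735 to 0.993), and the ratio of Cd28 had an interval on both sides of 1 (0.905, 0.772 to 1.06). Among members outside clusters 3, 6 and 8 the ratio was 0.577 for Ccr9, 0.650 for Itm2a, 1.79 for S1pr1 and 1.2 for Il7r (0.944 to 1.51). There the intervals of Lef1 (0.929, 0.780 to 1.1) and Nr4a1 (0.751, 0.546 to 1.02) held 1. With only clusters 6 and 8 left out, those of S1pr1 (1.22, 0.9915 to 1.49) and Klf2 (1.14, 0.970 to 1.33) held 1.

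Natural killer receptor genes were found in more Mgl2DTR members. Klrd1 was found in 18.3% of Mgl2DTR (15.2 to 21.7) and 4.62% of WT members (3.64 to 5.78), a ratio of 3.96 (2.91 to 5.42), and Klrk1 in 9.95% and 2.03%, a ratio of 4.91 (3.13 to 7.82). Zbtb16 was found in 12 Mgl2DTR members (2.09%) and 5 WT members (0.317%), a ratio of 6.61 (2.17 to 24.0). Outside clusters 3, 6 and 8 Klrd1 was found in 4.13% of Mgl2DTR and 1.07% of WT members, and Zbtb16 in 0 and 2 members. Klrk1 was found there in 2 Mgl2DTR members (0.551%) and 5 WT members (0.381%), a ratio of 1.44 (0.138 to 8.82). With cells holding 3 UMIs of other cell types left out, Cst3 not counted among them, Zbtb16 was found in 6 of 467 Mgl2DTR and 7 of 1295 WT members (2.38, 0.660 to 8.26). Neither coreceptor was found in 68.9% of Mgl2DTR and 60.7% of WT members, a ratio of 1.14 (1.01 to 1.28). Cd4 without Cd8 was found in 11.7% and 14.5% (0.806, 0.605 to 1.06), Cd8 without Cd4 in 18.85% and 22.99% (0.820, 0.655 to 1.02), and both in 3 Mgl2DTR and 29 WT members. Among members outside the 3 clusters neither coreceptor was found in 58.95% of Mgl2DTR and 56.75% of WT members (1.04, 0.888 to 1.21), and both in 5 and 21 members (0.860, 0.253 to 2.34). Foxp3 was found in 1.40% and 1.27% (1.10, 0.420 to 2.61) and Trdc, the delta chain constant gene, in 3.14% and 1.90% (1.65, 0.868 to 3.06). No difference in Foxp3 or Trdc cells was detected, since both intervals held 1.

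These shares can be read against cells that should lack T cell genes. In B cells, gated on Cd79a and Cd79b without Cd3 UMIs and thinned alike (302 Mgl2DTR and 221 WT cells), Klrd1 was found in 3.64% and 6.33%, Klrk1 in 0.331% and 0.452%, Ccr9 in 5.96% and 11.8%, Itm2a in 0.993% and 0.905%, Ms4a4b in 1.99% and 1.36% and Il7r in 3.64% and 7.69%. Before thinning, those B cells had medians of 7102 and 9808 UMIs. In neutrophils (650 Mgl2DTR and 290 WT cells) Klrd1 was found in 0.769% and 0.690%. The Mgl2DTR share of Klrd1 in members was above both, while the WT share was above that in neutrophils and below that in WT B cells. The Ccr9 share differed between genotypes in B cells too, with a ratio of 0.507 (0.262 to 0.960). So did those of S1pr1, at 8.28% in Mgl2DTR and 2.71% in WT B cells (3.05, 1.22 to 9.09), and of Klf2 (1.45, 1.005 to 2.11). In neutrophils the Ccr9 share was 2.46% in Mgl2DTR and 2.41% in WT (1.02, 0.397 to 2.93), and that of S1pr1 0.308% and 0.690% (0.446, 0.0323 to 6.16). Whether the B cells express Ccr9 or S1pr1 themselves was not tested, nor was the part of these shares in the members' differences. Nr4a1 was found in 11.6% of Mgl2DTR and 9.95% of WT B cells, below the members, and in 24.5% and 17.9% of neutrophils, above them. Whether those cells express it themselves was not tested, so these shares set no background level for it. Klf2, which B cells and neutrophils also express, was found in 30.1% and 20.8% of B cells and 39.1% and 39.0% of neutrophils. Itgax and Itgam, the genes of the sort's CD11c and CD11b, were found in 1.40% and 0.873% of Mgl2DTR and 1.77% and 0.633% of WT members. In B cells they were found in 4.97% and 3.64% of Mgl2DTR and 4.98% and 1.81% of WT cells. Those B cells passed the same sort, and whether they express the 2 genes was not tested, so their shares set no background level. Before thinning, Klrd1 was found in 26.3% of Mgl2DTR and 8.73% of WT members, Ccr9 in 19.8% and 42.3%, Itm2a in 34.98% and 50.6%, S1pr1 in 42.8% and 34.1%, and Il7r in 56.8% and 38.2%. Likewise unthinned, Klrk1 was found in 15.5% of Mgl2DTR and 4.58% of WT members, Zbtb16 in 3.92% and 0.977%, Nr4a1 in 25.4% and 30.5%, Klf2 in 64.2% and 54.1%, Foxp3 in 3.58% and 2.38% and Trdc in 4.95% and 3.48%. Neither coreceptor was then found in 51.0% and 38.9%, Cd4 alone in 21.7% and 24.9%, Cd8 alone in 24.2% and 29.9% and both in 3.07% and 6.35%.

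**Figure D3:**
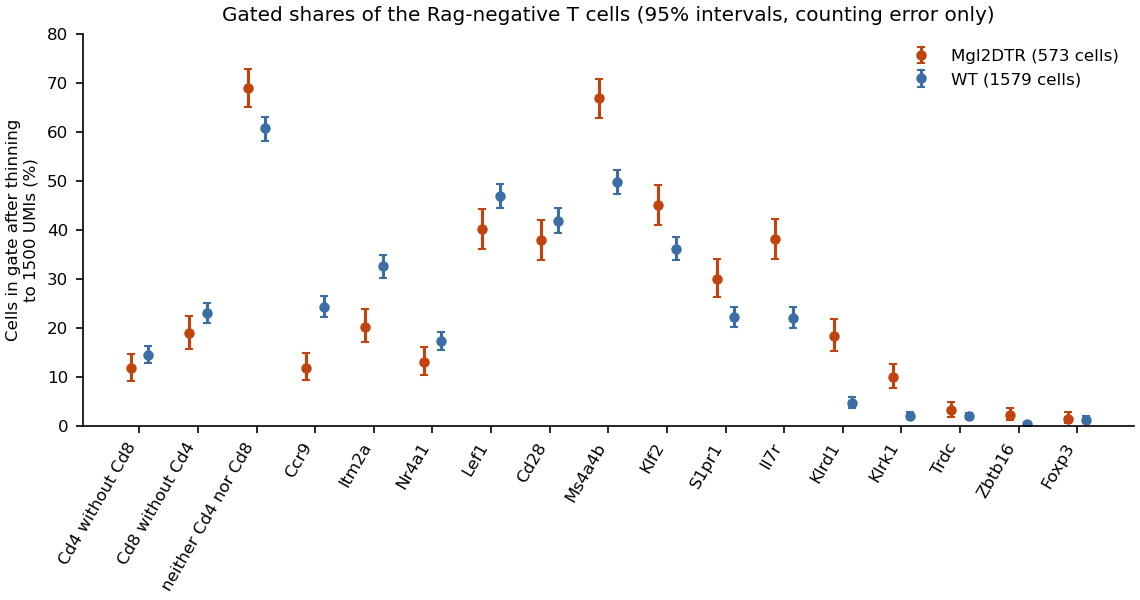
Percent of Rag-negative T cells with at least 1 UMI of the gene, or in the coreceptor gate, after thinning each cell to 1500 UMIs, for Mgl2DTR (left point, 573 cells) and WT (right point, 1579 cells). Bars are exact 95% intervals for counting error. The Mgl2DTR points are lower for Ccr9 and Itm2a and higher for Ms4a4b, Klf2, S1pr1, Il7r, Klrd1 and Klrk1.

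Over whole transcriptomes, UMIs were summed per genotype and a gene was called by size alone, when its ratio was 1.5 or more, or the inverse or less, and its interval lay on the same side of 1. Of 9398 genes with at least 50 summed counts, 468 (4.98%) were higher and 261 (2.78%) lower in Mgl2DTR, with a median log2 ratio of -0.02. Counts of called list genes over all members, given below, are to be read beside these shares. When each cell was weighted equally and the interval was not used, 604 were higher and 688 lower. With clusters 3, 6 and 8 left out, of 8395 genes 256 (3.05%) were higher and 192 (2.29%) lower. Of the 468 higher genes 139 were also higher there, and of the 261 lower genes 96. A higher summed level can come from more cells with the gene or from more UMIs per cell, so the share of cells with a UMI is given beside it.

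Of the 10 genes with the highest ratios, Gzmc, Klra9, Klra5 and Fasl belong to killer cells. Klra9 was at 143 CPM in Mgl2DTR (15.5% of members) and 22.8 CPM in WT (2.93%), a ratio of 6.28 (5.23 to 7.55). Fasl, the death ligand of killer cells, was at 37.0 CPM (9.90%) and 7.02 CPM (2.44%), a ratio of 5.27 (3.75 to 7.49). Gzmc was at 167 CPM in Mgl2DTR and 5.43 CPM in WT, but came from 2.56% and 0.549% of members. The other 6, Cxcl1, Cxcl2, Ccl2, Cd14, Slpi and Ccl6, are genes that myeloid cells express, with ratios of 5.45 to 20.7, and came from 1.19% to 7.34% of Mgl2DTR members. The ratios of Ccl2, Slpi and Ccl6 were 1.12, 1.17 and 0.923 without clusters 3, 6 and 8, and that of Cxcl2 was 1.75. Markers of monocytes summed to 756 CPM in Mgl2DTR and 363 CPM in WT members, with 6 of 8 measured genes higher, and to 167 and 146 CPM without those clusters. Macrophage markers summed to 147 and 90.7 CPM (4 of 6 measured higher) and to 81.5 and 69.6 CPM without the clusters, with Mertk at 0 in WT.

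Of the 10 genes with the lowest ratios, 5 were also lower without those clusters. Ephb6, an ephrin receptor without kinase activity, was at 5.38 CPM in Mgl2DTR (2.56% of members) and 20.3 CPM in WT (7.69%), a ratio of 0.266 (0.145 to 0.452). Ldhb, a subunit of lactate dehydrogenase, was at 24.8 CPM (9.73%) and 66.7 CPM (22.8%), a ratio of 0.371 (0.284 to 0.478). Ldhb was lower in the Cd4 and the Cd8 gate as well, at 0.433 and 0.390. H2-Q2, a class Ib gene with near-identical neighbours, Colq and Smo, the transducer of hedgehog signals, had ratios of 0.173, 0.377 and 0.402. Iglc1, Mgp, Cd209d, Mzb1 and H2-M2 are genes of plasma cells, stroma and dendritic cells. Iglc1 was at 14.7 CPM in Mgl2DTR and 312 CPM in WT, and its ratio of 0.0471 was 1.37 without clusters 3, 6 and 8. Tnf, Pf4 and Epcam changed direction without the top cell of each genotype and were left out, and 88 of the 98 Tnf UMIs in Mgl2DTR were in 1 cell.

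Genes of the T cell receptor complex and its first signalling steps differed little. Of 23 measured, 1 was higher and none lower, with a median log2 ratio of -0.09. Ptpn22, a phosphatase that restrains receptor signalling, was at 177 CPM in Mgl2DTR and 105 CPM in WT, a ratio of 1.69 (1.504 to 1.89), found in 50% and 32.1% of members. It was called higher in the Cd4 gate (1.65) and the Cd8 gate (1.64) too. Trac was at 486 CPM in Mgl2DTR and 537 CPM in WT, and Trbc2 at 1542 and 2038 CPM.

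Called CD4-lineage genes were lower in Mgl2DTR, and Cd4 and Cd8a were both lower too, short of a call. Of 8 CD4-lineage genes none was higher and 2 were lower, with a median log2 ratio of -0.40: Tox, which acts in CD4 commitment, was at 146 and 230 CPM (ratio 0.633) and the chemokine receptor Ccr4 at 9.33 and 16.8 CPM (0.555). Cd4 itself was at 75.03 CPM in Mgl2DTR and 105 CPM in WT, a ratio of 0.713 (0.609 to 0.831) short of the size for a call. In members outside clusters 3, 6 and 8, Tox and Ccr4 were at 0.691 and 0.680, and the CD4-lineage factor Zbtb7b and Cd40lg were lower instead. Of 10 CD8-lineage genes 5 were higher and 1, Ccr9, was lower. Those higher, Nkg7, Itgae, Eomes, Cxcr3 and Cd160, are also genes of killer and innate-like cells, while Cd8a was at 122 CPM in Mgl2DTR and 177 CPM in WT (0.691, 0.612 to 0.778) and was not called. Eomes (5.27) was the 1 called higher of 9 without clusters 3, 6 and 8. The dividing cluster 7 held 27 Mgl2DTR and 3 WT UMIs of Eomes, from 10.6% and 3.23% of its cells.

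Over all members, the genes of receptor signalling during selection that were called were all lower, which did not hold in the Cd4 gate (given below). Of 25 measured, none was higher and 3 were lower, against 2.78% lower over all genes tested, with a median log2 ratio of 0.03. Itm2a was at 198.5 CPM in Mgl2DTR and 387 CPM in WT, a ratio of 0.513 (0.468 to 0.562), found in 34.98% and 50.6% of members. Nab2, a corepressor of EGR factors, was at 18.3 and 33.2 CPM (0.551) and Id3, a target of receptor signals, at 71.4 and 119.5 CPM (0.598). Nr4a1, at 111 and 142 CPM, and Bcl2l11, the BIM gene of clonal deletion, at 69.3 CPM in Mgl2DTR and 82.7 CPM in WT, had ratios of 0.776 and 0.838 and were not called. Pdcd1 was at 16.2 and 14.8 CPM. Outside clusters 3, 6 and 8, Itm2a, Nab2 and Egr1 were lower, with ratios of 0.588, 0.486 and 0.524, and Id3 was at 0.678. Of 17 apoptosis genes the only one called was Pmaip1 (NOXA), at 14.0 and 21.7 CPM (0.645), which was at 1.33 without those clusters.

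Genes of immature thymocytes were lower where they were called. Of 18 measured, none was higher and 5 were lower, with a median log2 ratio of -0.32. Ccr9 was at 94.4 CPM in Mgl2DTR and 225 CPM in WT, a ratio of 0.419 (0.367 to 0.478), found in 19.8% and 42.3% of members. Sox4 was at 171 and 269 CPM (0.637), and Endou, Aqp11 and Cd1d1, the molecule that selects natural killer T cells, had ratios of 0.484, 0.642 and 0.569. Without clusters 3, 6 and 8, Ccr9 (0.492), Endou and Aqp11 were lower, Sox4 was at 0.771, and Dntt (1.60) and Hes1 (1.81) were higher. Of Dntt, the dividing cluster 7 held 105 Mgl2DTR and 128 WT UMIs, and cluster 5 held 0 and 62. Over all members Dntt was held by 3.92% of Mgl2DTR and 6.04% of WT members, while its summed level had a ratio of 1.33 (1.06 to 1.67).

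Genes of maturation and egress had 4 of 28 higher and 1 lower, with a median log2 ratio of 0.27. Il7r was at 380 CPM in Mgl2DTR and 217 CPM in WT, a ratio of 1.75 (1.62 to 1.89). Dapl1 was at 54.2 and 30.1 CPM (1.80, 1.46 to 2.23), and Ly6a and Cd55 had ratios of 1.51 and 1.88. Satb1, a chromatin organiser of developing T cells, was at 714 CPM in Mgl2DTR and 1137 CPM in WT (0.628, 0.598 to 0.660). S1pr1 was at 245 and 168 CPM (1.46, 1.32 to 1.60), Klf2 at 430 and 344 CPM (1.25) and Ccr7, which draws cells to the medulla, at 553 and 402 CPM (1.38), none past the size for a call. With clusters 3, 6 and 8 left out, those called higher were S1pr1 (1.75), Ccr7 (1.81), Dapl1 (2.11) and H2-Q7, while Il7r was at 1.09, Ly6a at 1.01 and Satb1 at 0.671. In cluster 3 Il7r was at 929 CPM in Mgl2DTR and 527 CPM in WT.

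The regulatory T cell list had 4 of 14 higher and none lower, against 4.98% higher over all genes tested, with a median log2 ratio of 0.24. Ctla4, the inhibitory receptor, was at 51.3 CPM in Mgl2DTR (12.1% of members) and 18.5 CPM in WT (5.74%), a ratio of 2.77 (2.18 to 3.52), and Nt5e (CD73) at 31.6 and 9.53 CPM, a ratio of 3.32 (2.40 to 4.59). Capg and Il2rb, the IL-2 receptor beta chain, had ratios of 2.05 and 2.67, and Il2rb is also on the innate-like list. Foxp3 was at 13.3 CPM and 10.5 CPM, from 37 and 79 UMIs (1.27, 0.835 to 1.90), and was not called. Among members outside clusters 3, 6 and 8, Foxp3 (1.61) and Il2ra (1.96) were called higher beside Ctla4 (3.56), Nt5e and Il2rb.

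**Figure D4:**
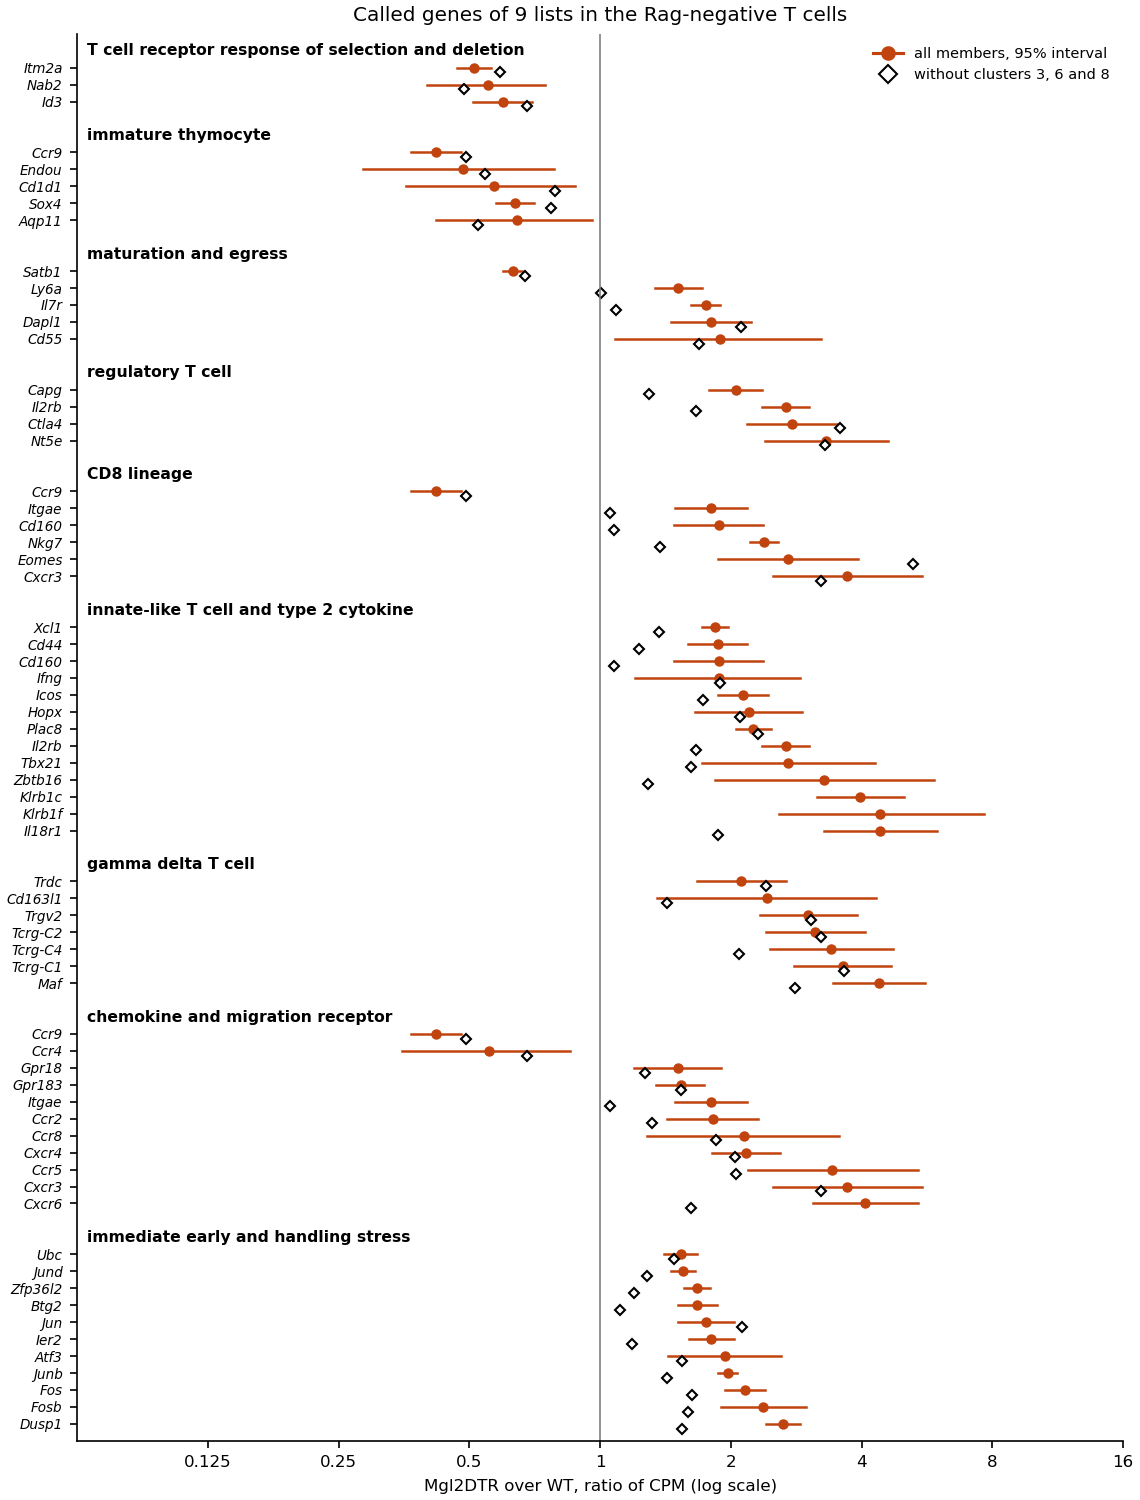
Ratio of CPM in Mgl2DTR over WT (log axis) for the called genes of 9 lists. Filled points with lines are all Rag-negative T cells with exact 95% intervals, and open diamonds the ratio without clusters 3, 6 and 8, left out where either genotype had 3 or fewer UMIs. Il7r and Cd160 move close to 1 without those clusters, while Ccr9, Itm2a, Ctla4 and Tcrg-C1 stay on their side.

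The innate-like list, which includes type 2 cytokines, had 13 of 17 measured genes higher and none lower, with a median log2 ratio of 1.09 against -0.02 over all genes. Klrb1c was at 67.9 CPM in Mgl2DTR (17.7% of members) and 17.1 CPM in WT (4.03%), a ratio of 3.97 (3.16 to 5.01). Il18r1, the IL-18 receptor chain, was at 43.8 and 9.93 CPM (4.41), Zbtb16, which directs innate-like development, at 10.4 and 3.18 CPM (3.28) and Tbx21, the factor of interferon gamma-producing cells, at 14.7 and 5.43 CPM (2.71). Icos was at 148 and 69.4 CPM (2.13) and Xcl1, a chemokine for type 1 dendritic cells, at 472 and 257 CPM (1.84). Natural killer and innate lymphoid markers moved with these genes, at a sum of 1237 CPM in Mgl2DTR and 548 CPM in WT with 8 of 9 measured higher and none of the listed genes at 0, and at 300.1 and 192 CPM without clusters 3, 6 and 8. Their part in the result was not tested. In the cells outside clusters 3, 6 and 8, 5 of 11 were higher: Il2rb, Icos, Plac8, Hopx and Itga4.

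Il4, a type 2 cytokine, the class that the study's title names, had too few UMIs for a call. It was at 6.10 CPM in Mgl2DTR and 1.32 CPM in WT, from 17 and 10 UMIs in 2.22% and 0.549% of members, a ratio of 4.61 (1.99 to 11.3). Il13 had 0 UMIs in Mgl2DTR and 3 in WT. Of 16 genes of the IL-4 response in T cells, 6 were higher (Socs3, Cish, Eomes, Ccr8, Batf and Pim1) and 1 lower (Ccr4). Cish, a feedback inhibitor of cytokine signals, was at 35.5 and 17.9 CPM (1.99, 1.52 to 2.60). The receptor chain Il4ra was at 57.1 CPM in Mgl2DTR and 51.0 CPM in WT (1.12, 0.925 to 1.35). With clusters 3, 6 and 8 removed, Cish, Eomes, Batf and Pim1 were higher and Socs3 was at 0.808.

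Gamma delta genes had 7 of 10 measured higher and none lower, with a median log2 ratio of 1.43. Tcrg-C1 was at 51.7 CPM in Mgl2DTR (8.87% of members) and 14.3 CPM in WT (2.14%), a ratio of 3.62 (2.80 to 4.68). Trdc was at 47.0 CPM (4.95%) and 22.2 CPM (3.48%), a ratio of 2.11 (1.67 to 2.67), and Maf, a factor of IL-17-producing cells, at 65.0 and 14.8 CPM (4.38). Gamma chain genes are near-identical copies, and reads of Tcrg-C1 and Tcrg-C2 may have been split between them. Without clusters 3, 6 and 8, 8 of 8 measured were higher, with Tcrg-C1 at 3.63 and Trdc at 2.41. Outside those clusters the Mgl2DTR UMIs of Tcrg-C1 were 70 in the dividing cluster 7 and 11 in cluster 5, from 7.69% of its 13 Mgl2DTR cells, and none elsewhere. Of Trdc, cluster 7 held 65 Mgl2DTR UMIs, cluster 5 held 6 and cluster 0 held 3. In WT members cluster 7 held 64 UMIs of Tcrg-C1 and 56 of Trdc. The interval of the Trdc gate held 1, so the summed level and the share of cells are set side by side here.

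Chemokine and migration receptors had 9 of 19 higher and 2 lower (Ccr9 and Ccr4). Cxcr6, a homing receptor of innate-like T cells, was at 47.4 CPM in Mgl2DTR and 11.6 CPM in WT (4.07, 3.08 to 5.39), Cxcr3 at 22.98 and 6.22 CPM (3.69) and Cxcr4, a receptor for CXCL12, at 80.4 and 37.1 CPM (2.17, 1.81 to 2.60). Without clusters 3, 6 and 8 Cxcr4 (2.04) and Gpr183 (1.54) were called, together with Ccr7, S1pr1 and Itga4, and Cxcr6 was not (1.61).

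Early response genes were higher in 11 of 22 and lower in none, with a median log2 ratio of 0.52. Dusp1 was at 361 CPM in Mgl2DTR and 137 CPM in WT (2.64, 2.41 to 2.88), Fos at 233 and 108 CPM (2.16) and Junb at 913 and 464 CPM (1.97). These genes also move with tissue digestion and handling time, which the labels do not give per genotype and which cannot be told apart from genotype here. Without clusters 3, 6 and 8, 4 of 22 were higher (Fos, Fosb, Jun and Dusp1), with Junb at 1.42. Of 16 NF-kB genes 2 were higher: Tnfaip3, its feedback inhibitor, at 226 and 96.5 CPM (2.34, 2.10 to 2.61), found in 54.6% of Mgl2DTR and 29.2% of WT members, and Nfkbiz (1.78). Tnfaip3 was higher in both coreceptor gates, in clusters 0, 1, 3 and 4 and without clusters 3, 6 and 8 (2.10).

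Other lists stayed near the background. Interferon response genes had 1 of 25 higher (Ly6a) and 1 lower (Ifit1, at 32.7 CPM in Mgl2DTR and 51.5 CPM in WT, a ratio of 0.634), with a median log2 ratio of 0.04. The cell cycle list had 2 of 20 higher (Ccnb2 and Mcm6), glycolysis 1 of 15 (Slc2a1), class I presentation 1 of 15 (H2-Q6), the sort's integrins 1 of 4 (Itgam, from 30 and 38 UMIs, of which cluster 8 held 22 and 14, and with a ratio of 0.966 without clusters 6 and 8), and none was lower. No mitochondrially encoded gene (13) and no ribosomal protein gene (76 measured) was called, with medians of 0.15 and 0.03. Of the sex-linked genes Eif2s3y was higher, at 49.9 CPM in Mgl2DTR and 26.7 CPM in WT. Xist had 0 UMIs in Mgl2DTR and 1 in WT, and Ddx3y was at 92.6 and 73.7 CPM.

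**Figure D5:**
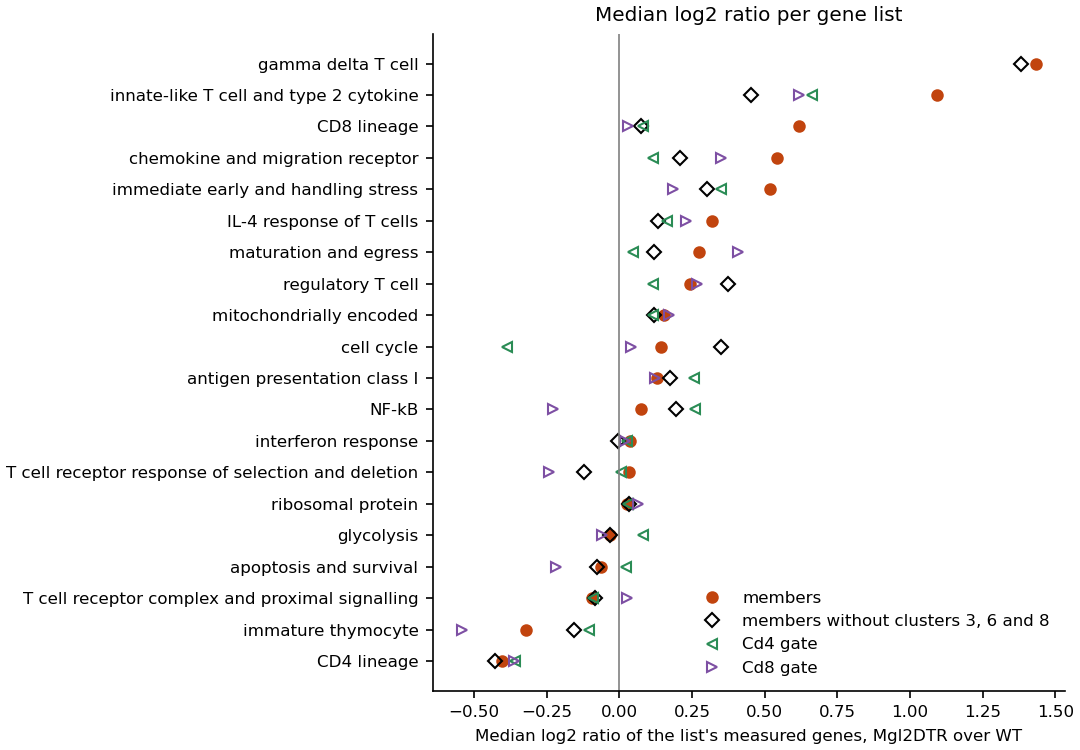
Median log2 ratio of Mgl2DTR over WT for the measured genes of 20 lists, in all Rag-negative T cells, without clusters 3, 6 and 8, in the Cd4 gate and in the Cd8 gate (lists with under 3 measured genes in a gate are left out there). Gamma delta and innate-like lists lie farthest to the right in all members, at 1.43 and 1.09, and the CD4 and immature lists to the left, at -0.40 and -0.32.

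The comparison was repeated in members with Cd4 and no Cd8 UMIs (127 Mgl2DTR and 408 WT cells) and in those with Cd8 and no Cd4 UMIs (142 and 489 cells). In the Cd4 gate 188 of 5354 genes (3.51%) were higher and 157 (2.93%) lower, and in the Cd8 gate 247 of 6493 (3.8%) and 287 (4.42%). The gates shared 39 higher genes, 20.7% of those of the Cd4 gate and 15.8% of those of the Cd8 gate, and 17 lower genes, 10.8% and 5.92%. Among the shared higher genes were Ctla4, Icos, Il2rb, Cd44, Ccr7, Nkg7, Ptpn22, Tnfaip3 and Dusp1, and among the shared lower genes Ccr9, Tox and Ldhb. The shared higher genes also held Apoe, Cebpb, Cxcl2, Fcer1g, G0s2, Il1b and Wfdc17, which myeloid cells express, and the antibody gene Igkc. The source of these transcripts was not tested.

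In the Cd8 gate, maturation genes were higher in 8 of 26 and lower in none, and immature genes lower in 8 of 17 and higher in none, with median log2 ratios of 0.41 and -0.54 against -0.05 over all genes. S1pr1 had a ratio of 1.69, Il7r 1.58, Ms4a4b 1.56 and Ccr7 1.55, while Cd24a was at 0.438 and Dntt, from 6 Mgl2DTR and 79 WT UMIs, at 0.252. Endou had 1 UMI in Mgl2DTR and 57 in WT, a ratio of 0.0583 (0.00145 to 0.338). In the Cd4 gate, 2 of 25 maturation genes were higher (Ccr7 at 1.75 and H2-Q7) and 1 of 10 immature genes lower (Ccr9 at 0.419), with Myb and Ighm higher. Genes of receptor signalling during selection were higher in 4 of 19 in the Cd4 gate (Nr4a2, Tnfrsf4, Gadd45b and Cd83) and lower in 1 (Itm2a). In the Cd8 gate none of 20 was higher and 3 were lower (Nab2, Id3 and Cd83). Cell cycle genes were lower in 4 of 19 in the Cd4 gate (Mki67, Top2a, Birc5 and Rrm2) and higher in 2 of 20 in the Cd8 gate. Whether the gates differed from each other was not tested. Cluster 5 gave 3.52% of the Mgl2DTR and 14.9% of the WT cells of the Cd8 gate, and cluster 2 gave 11.02% of the Mgl2DTR and 28.4% of the WT cells of the Cd4 gate. Cluster 3, with natural killer receptors, gave 10.6% of the Mgl2DTR and 1.64% of the WT cells of the Cd8 gate. In the Cd4 gate it gave 8.66% and 1.96%. The part of these clusters in the gated ratios was not tested.

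The comparison was also made within 4 single clusters. In the mature cluster 0, 115 of 4294 genes (2.68%) were higher and 72 (1.68%) lower. S1pr1, Foxo1 and Ccr7 were higher there, and Isg15, Ifit1 and Usp18 of the interferon list were lower. In the CD8 T cell-like cluster 1, 101 of 3674 (2.75%) were higher and 117 (3.18%) lower, with Il7r, Ccr7 and Dapl1 among the higher and Id3 and Tox among the lower. In the regulatory T cell-like cluster 4, 113 of 2723 (4.15%) were higher and 72 (2.64%) lower. Ctla4 was higher there, 5 of 18 interferon genes (Isg15, Ifit1, Isg20, Ifi209 and Xaf1) were lower, as were Nr4a1, Nr4a3, Id3, Fas and Trp53, and none of the 18 was higher.

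In cluster 3, 131 of 2606 genes (5.03%) were higher and 54 (2.07%) lower. These cells were grouped by genes such as the natural killer receptors, whose levels between genotypes are given as a description. Klrd1 was at 544 CPM in Mgl2DTR and 539 CPM in WT, a ratio of 1.01 (0.848 to 1.205), and Klrb1c at 290.0 and 289.7 CPM, a ratio of 1.00 (0.787 to 1.28). Klra9, at 639 and 389 CPM (1.64), and Klrk1, at 317 and 173 CPM (1.83), were higher in Mgl2DTR. Il7r was higher (1.76), as were Icos (1.87), Maf (1.58) and Cish (2.19), and 7 of 19 early response genes including Dusp1 (2.23) and Junb (1.92). Tcf7, Itm2a (0.398), Sox4, Ifng, Ccr2 and Trdc (0.666) were lower.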

How the data were processed

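Single thymic cells were measured with the Chromium 3′ v3 kit, and Cell Ranger 6.0.0, Seurat 4.0.4 and mm10 are named in the submitters' processing notes. The annotation, cell filter and hashtag settings were not given in the sources used here. Raw counts (UMIs) of 20451 genes and of 3 hashtags were deposited for 28926 cells, and with them an annotation with the hashtag call of each cell and a deposited score, the hashtag margin, per the file headers. UMI totals per cell equalled the annotation's in all 28926 cells. Genotype was the hashtag call. Each gene table holds single-hashtag cells of 1 genotype. Of the annotation, 7 columns were not used. Cells with a pair of hashtags (9829) or none (78) were left out, which removes doublets across genotypes only, and no doublet caller was run.

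The members, gene lists and markers were chosen with earlier results of these data known. Summed UMIs gave CPM with exact Poisson intervals and ratios with exact conditional intervals. Shares carry Clopper-Pearson intervals. No count model was fitted, since each genotype is 1 library. PCR and sampling of animals are outside these intervals. A gene needed 50 summed counts, and a ratio of 1.5 with its interval clear of 1 for a call. Genes named by size were the 10 highest and 10 lowest ratios among called genes with at least 100 counts that kept their direction without the top cell of each genotype, and called list members were named too. Clusters used 1500 variable genes without those of the rule and without sex-linked, mitochondrial and ribosomal genes, 20 principal components, 15 neighbours and Leiden clustering at a resolution of 0.8 with seed 1 (igraph 0.11.9, leidenalg 0.10.2). A marker counted at 2 times the CPM of the other members with 20 CPM added and in 20% of cells. A cluster was named when 50% of 1 list counted, at least 3 genes, no other list came within 20 percentage points, and 2 of its top 10 genes were on the list. Functions were tested on simulated counts. The software was matplotlib 3.10.9, pandas 2.3.3, scipy 1.17.1 and numpy 2.4.6 under Python 3.11.15. Gene positions are from GENCODE on GRCm38, the assembly that mm10 names.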

Additional observations from a re-analysis of the deposited data

Results flagged for a closer look

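Of the genes with at least 100 counts in both coreceptor gates, 6 were called in opposite directions in them, and the difference between the gates was not tested. The ratios of Mgl2DTR over WT in the Cd4 gate and then the Cd8 gate were 1.79 and 0.587 for Relb, 1.91 and 0.570 for Il4i1, 1.74 and 0.455 for Net1, 1.81 and 0.564 for Cd83, 1.80 and 0.532 for Apol7c, and 0.660 and 2.28 for Ifitm3. Cluster 6, led by dendritic cell genes, gave 5.51% of the Mgl2DTR and 3.92% of the WT cells of the Cd4 gate, and 4.93% of the Mgl2DTR and 10.8% of the WT cells of the Cd8 gate. Without clusters 6 and 8 the ratios were 1.52 and 1.26 for Relb, 1.21 and 1.47 for Il4i1, 1.64 and 0.687 for Net1, 0.987 and 1.17 for Cd83, 0.846 and 0.703 for Apol7c, and 0.870 and 1.25 for Ifitm3, and all 12 intervals held 1.

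Cells under the same rule were also found among those left out of the comparisons. Among cells with both genotype hashtags 288 passed the rule, 6.06% of 4755, with a median of 5623 UMIs. Among cells with the third hashtag and another, 244 passed: 116 with the Mgl2DTR hashtag and 128 with the WT one.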

How the results depend on the processing

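No paired analysis was possible because each genotype is 1 library, and the label numbers only name libraries. Leaving out replicates was not possible either, and a comparison within each deposited table gave no value, since each holds 1 genotype. The count of genes higher in Mgl2DTR, 468, became 177 at a minimum of 200 counts, 837 without a minimum, 191 at a ratio of 2, 259 after thinning, 181 without cells holding 3 UMIs of other types' markers (which kept 123 Mgl2DTR and 388 WT cells) and 256 without clusters 3, 6 and 8. The count lower, 261, became 84 at 200 counts, 90 at a ratio of 2 and 688 with each cell weighted equally. The members' share ratio of 0.558 became 0.494 without cells holding other types' markers and 0.425 without clusters 3, 6 and 8.

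Some genes changed direction. Without cells holding other types' markers, ratios were 0.616 for Ccl6, 1.06 for Iglc1, 0.763 for Ccr2 and 0.487 for Dapl1, and the Nr4a1 share ratio was 1.03. With Cst3 taken off that marker list they were 0.817 for Cxcl2, 0.590 for Cd14, 1.49 for Iglc1, 0.559 for Itgam and 1.22 for Pmaip1. Without clusters 6 and 8 they were 0.819 for Cd14, 0.958 for Ccl6, 1.31 for Iglc1, 0.966 for Itgam and 1.19 for Pmaip1. With cluster 3 left out too they were 0.923 for Ccl6, 1.37 for Iglc1, 1.32 for Pmaip1 and 0.808 for Socs3. After thinning they were 1.04 for Mzb1 and 0.870 for Socs3. For these the cause was not tested. Alternatives that use clusters, that drop Cst3 or that leave neutrophils out of the total were chosen after seeing the data, and ratios with 3 or fewer counts in a genotype were not recomputed. With 2785476 UMIs in Mgl2DTR members and 7554691 in WT members, genes under 50 summed counts stayed uncalled.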
